A study of Mus musculus with 4 samples.

Results

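The 10 genes described here, Spi1, Ptprc, Csf1r, Tyrobp, Fcer1g, Nckap1l, Rac2, Coro1a, Aif1 and Laptm5, are commonly used to recognise white blood cells and macrophages. They were read in mouse cells made from EB5 embryonic stem cells that carried a Hoxb6 reporter that makes red fluorescent protein (RFP). They are 10 of the 20654 genes that could be named on the array, and they were taken by symbol through the RefSeq accession of their probes, 13 probes in all. The choice rested on their signals on the same 4 arrays, so that their values are given as a description and were not tested. Flk-1-positive cells that were RFP-positive were set against Flk-1-positive cells that were RFP-negative, with 2 one-colour arrays each. All 4 samples came from day 6 of differentiation on a feeder layer of OP9 cells, a stromal line from mouse bone marrow, and were sorted by the reporter and by staining of Flk-1, the VEGF receptor encoded by Kdr. The labels speak of duplicates and do not say that these came from separate cultures, so that the spread between them may be technical.

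White blood cells arise from mesoderm that passes through a Flk-1-positive stage shared with endothelium. The transcription factor PU.1, the product of Spi1, drives the myeloid branch and switches on surface receptors such as the one for macrophage colony-stimulating factor, Csf1r. Cells of that branch signal through small adaptor proteins with an immunoreceptor tyrosine-based activation motif (ITAM) and carry blood-specific forms of proteins that remodel actin. The OP9 line was derived from op/op mice, which lack functional macrophage colony-stimulating factor.

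Every level below is the log2 of the scanner's processed signal relative to the 75th percentile of its array, and every difference is RFP-positive minus RFP-negative. The scanner marks a spot as well above background, and the lowest signal so marked lay between −4.54 and −3.98 on the 4 arrays. Kdr was bright on all 4 arrays, at 4.41 and 4.36 in RFP-positive cells, against 4.18 and 4.33 in RFP-negative cells. The single probe of Hoxb6 was on no array well above background, so that the reporter's own gene does not check the labels. The share of spots well above background ran from 55.2% to 59.3%. Across the 13433 genes tested, the arrays labelled replicate 1 of both fractions had a Pearson correlation of 0.982, and the RFP-negative arrays one of 0.980 with each other (across genes, which are not independent replicates). RFP-positive replicate 2 had the lowest correlations, 0.964 with RFP-positive replicate 1 and 0.953 and 0.950 with RFP-negative replicates 1 and 2. With limma and Benjamini-Hochberg adjustment, 0 of these genes (0.0%) passed an adjusted p of 0.05, 872 (6.49%) had an unadjusted p under 0.05, and the smallest adjusted p was 0.110.

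The 10 genes were dim, apart from 1 probe of Csf1r. Of them, 5 were well above background on all 4 arrays, namely Ptprc, Spi1, Rac2, Tyrobp and Csf1r. For another 4, Coro1a, Nckap1l, Aif1 and Fcer1g, the RFP-negative fraction was the only one with both arrays well above background, and for 1, Laptm5, the RFP-positive fraction was. All 10 therefore passed the filter on dim probes, which asks for both arrays of at least 1 fraction, and 5 passed through 1 fraction only. Outside Csf1r, the brightest reading was that of Fcer1g on RFP-positive replicate 2, at −0.74.

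The fractions did not overlap for 4 of the 10 genes, Spi1, Nckap1l, Coro1a and Aif1, all 4 lower in RFP-positive cells, where 40.3% of all genes tested did not overlap and 21.6% were lower. For 0 of the 10 were the RFP-positive arrays both higher, where 18.8% of all genes tested were. The other 6 genes overlapped between the fractions, by the probe that stands for each. Because the genes were chosen from these arrays, nothing is read from these counts. The median difference of the 10 genes was −0.22, and that of all genes tested was −0.05. In sorted bulk RNA, fewer cells of a type and less RNA per cell cannot be told apart.

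**Figure D1:**
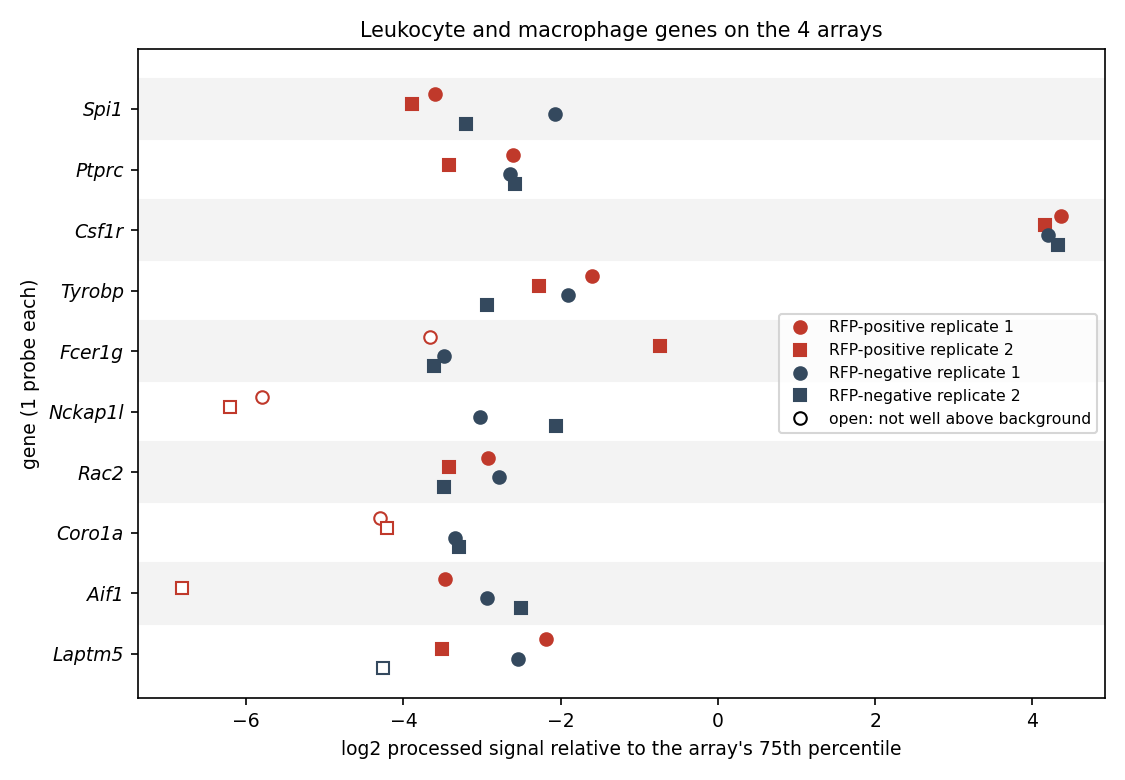
Level of each of the 10 genes on each array, as log2 processed signal relative to the array's 75th percentile (horizontal axis); each symbol is 1 array, red for RFP-positive and dark blue for RFP-negative, and open symbols were not well above background. Spi1, Nckap1l, Coro1a and Aif1 have both red symbols to the left of both blue ones, and Csf1r alone lies far to the right, between 4.16 and 4.36.

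Spi1 encodes PU.1, the Ets-family factor at the head of the myeloid branch. Its single probe read −3.60 and −3.89 in RFP-positive cells, against −2.07 and −3.21 in RFP-negative cells. The processed signals behind these were 17.0 and 16.8 in RFP-positive and 43.5 and 22.5 in RFP-negative cells. The fractions did not overlap, but the RFP-negative arrays lay farther apart from each other, by 1.13, than RFP-positive replicate 1 lay from RFP-negative replicate 2, by 0.39. The means were −3.75 ± 0.21 in RFP-positive and −2.64 ± 0.80 in RFP-negative cells (SD, n = 2 each), a difference of −1.11. Without RFP-negative replicate 1 the difference was −0.54, and without RFP-negative replicate 2 it was −1.67.

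PU.1 binds a purine-rich stretch called the PU-box. To show which of the 10 genes hold one near their start, the 250 bases before each start site in the RefSeq promoter table (GRCm38.p6) were searched for GAGGAA on both strands. The table holds 7 start sites for 5 of the genes, Ptprc, Coro1a, Laptm5, Fcer1g and Aif1, and 3 of the 7 windows hold the letters. Among all 32536 distinct windows of that length, 23.4% do. The 3 windows with a match, and the first of the 2 windows of Coro1a, which has none, are printed 5′ to 3′ on the gene's strand, with the match (GAGGAA or its reverse complement TTCCTC) in capitals.
Ptprc, chr1:138175306-138175555, minus strand: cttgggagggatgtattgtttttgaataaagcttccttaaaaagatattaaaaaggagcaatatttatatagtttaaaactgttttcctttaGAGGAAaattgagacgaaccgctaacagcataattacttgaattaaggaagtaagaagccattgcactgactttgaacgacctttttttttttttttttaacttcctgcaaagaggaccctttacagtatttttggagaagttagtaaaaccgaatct
Laptm5, chr4:130913066-130913315, plus strand: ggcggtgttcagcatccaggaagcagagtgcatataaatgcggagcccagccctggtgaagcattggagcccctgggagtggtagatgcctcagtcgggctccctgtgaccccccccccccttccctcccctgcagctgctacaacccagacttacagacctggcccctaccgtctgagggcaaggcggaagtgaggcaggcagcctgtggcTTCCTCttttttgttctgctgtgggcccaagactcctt
Aif1, chr17:35176053-35176302, minus strand: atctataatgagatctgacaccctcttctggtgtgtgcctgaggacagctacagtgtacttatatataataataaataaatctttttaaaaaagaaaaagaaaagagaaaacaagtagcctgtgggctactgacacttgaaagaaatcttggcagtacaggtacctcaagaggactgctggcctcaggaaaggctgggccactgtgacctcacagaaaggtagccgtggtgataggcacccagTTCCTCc
Coro1a, chr7:126704817-126705066, minus strand: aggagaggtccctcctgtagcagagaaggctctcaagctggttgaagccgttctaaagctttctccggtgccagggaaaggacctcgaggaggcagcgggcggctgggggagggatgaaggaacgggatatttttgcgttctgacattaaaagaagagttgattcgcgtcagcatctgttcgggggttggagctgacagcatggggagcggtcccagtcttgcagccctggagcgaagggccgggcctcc
The match begins 158 bases before the start site in Ptprc, 38 before it in Laptm5 and 7 before it in Aif1. The longer form GAGGAAGT, which contains the shorter one, was in 0 of the 7 windows and in 2.45% of all windows. The Runx core TGTGGT was in 0 of the 7 and in 4543 of all 32536. Of the 3 genes with a PU-box in the window, Aif1 was lower in RFP-positive cells without overlap, and Ptprc and Laptm5 overlapped. A match is a string of letters and shows no binding.

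Ptprc encodes CD45, a phosphatase on the surface of white blood cells. Its probe read −2.61 and −3.42 in RFP-positive cells, against −2.65 and −2.59 in RFP-negative cells. RFP-positive replicate 1 lay between the 2 RFP-negative arrays, and only RFP-positive replicate 2 was lower. The difference of −0.40 between −3.01 ± 0.57 in RFP-positive and −2.62 ± 0.04 in RFP-negative cells (SD, n = 2 each) was thus within the range of 1 fraction, and without RFP-positive replicate 2 it was 0.01.

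Csf1r, the receptor for macrophage colony-stimulating factor and interleukin 34, had 3 probes that disagreed. The brightest, which stands for the gene by the rule used here, read 4.36 and 4.16 in RFP-positive cells, against 4.20 and 4.32 in RFP-negative cells, with a difference of −0.00107, whose sign changed in 7 of 11 alternatives. The next read −4.01 and −4.26 in RFP-positive cells, against −3.83 and −2.52 in RFP-negative cells, and was not well above background on RFP-positive replicate 1. The last was on no array well above background. One probe thus showed a strong signal in both fractions, with overlap. Another showed a faint one near the background mark on 3 arrays, with RFP-negative replicate 2 alone standing higher. That faint probe differed by −0.96, lower in RFP-positive cells without overlap. The last probe, not well above background, differed by 1.08, in the other direction. Of the 5475 genes with several probes, 519 (9.48%) had 1 probe well above background on all 4 arrays and another on none. Which of the 3 probes reads Csf1r transcript cannot be told from the files, so the level of Csf1r is uncertain.

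The ligands of that receptor were read as well. Csf1, by its brightest probe, was at −1.12 and −0.61 in RFP-positive cells, against −1.28 and −0.31 in RFP-negative cells, so that the fractions overlapped (difference −0.07, limma SE 0.42, adjusted p 0.958). Il34 was on no array well above background.

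Tyrobp and Fcer1g encode the ITAM adaptors DAP12 and the Fc receptor gamma chain, which couple surface receptors to the kinase Syk. Tyrobp read −1.60 and −2.28 in RFP-positive cells, against −1.90 and −2.93 in RFP-negative cells. The fractions overlapped, with the arrays in the order RFP-positive replicate 1, RFP-negative replicate 1, RFP-positive replicate 2 and RFP-negative replicate 2 from high to low. Its means were −1.94 ± 0.48 in RFP-positive and −2.42 ± 0.73 in RFP-negative cells (SD, n = 2 each), and the difference of 0.48 was smaller than the gap between the arrays within either fraction, 0.68 and 1.03 in size. Without RFP-negative replicate 2 it was −0.04.

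Fcer1g read −3.67 and −0.74 in RFP-positive cells, against −3.48 and −3.61 in RFP-negative cells. A single array, RFP-positive replicate 2, stood apart with a processed signal of 149.8, against 16.2 on RFP-positive replicate 1 and 16.4 and 17.0 on the RFP-negative arrays. RFP-positive replicate 1 was not well above background, and the 3 dim arrays have no order. The mean difference of 1.34 therefore rests on 1 array, and without it the difference was −0.12.

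Nckap1l encodes HEM1, the blood-specific subunit of the WAVE complex that drives branched actin at the leading edge. Its probe is printed 10 times on each array. In RFP-positive cells the median of the 10 spots was −5.92 and −6.49 on replicates 1 and 2, and 0 of 10 spots were well above background on each. In RFP-negative cells it was −2.94 and −2.08, and 10 of 10 spots were well above background on each. No spot of an RFP-positive array came within reach of an RFP-negative one, since the brightest RFP-positive spot was at −4.95 and the dimmest RFP-negative spot at −3.51. The RFP-negative arrays also differed from each other, with ranges of −3.51 to −2.69 on replicate 1 and −2.18 to −1.85 on replicate 2. Because RFP-positive cells gave only a bound, Nckap1l was at least 3.29-fold higher in the RFP-negative fraction by the fraction means. Without RFP-negative replicate 2, Nckap1l was at least 2.35-fold higher, and without RFP-negative replicate 1 at least 4.60-fold. By its measured signals it was the 1 gene of the 10 at least 2-fold apart in every pair of arrays, with both RFP-positive arrays lower, where 0.893% of all genes tested were so and 1.36% were that far apart in either direction. Its RFP-positive signals are below background, and against the lowest signal well above background the nearest pair was 1.94-fold apart, so that 2-fold in every pair is not shown.

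Rac2, the Rac GTPase of blood cells that acts on the WAVE complex, was likewise printed 10 times, which shows the error of a dim spot. The median of the spots used was −2.88 and −3.51 on RFP-positive replicates 1 and 2, against −2.76 and −3.48 on RFP-negative replicates 1 and 2. The SD of the spots within 1 array ran from 0.18 to 0.26 on the log2 scale. The arrays labelled replicate 2 were lower than those labelled replicate 1 in both fractions, and the fractions overlapped. The mean difference was −0.04, and its sign changed under quantile normalization, scaling to the median and the deposited value table, and without RFP-positive replicate 2 or RFP-negative replicate 1.

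**Figure D2:**
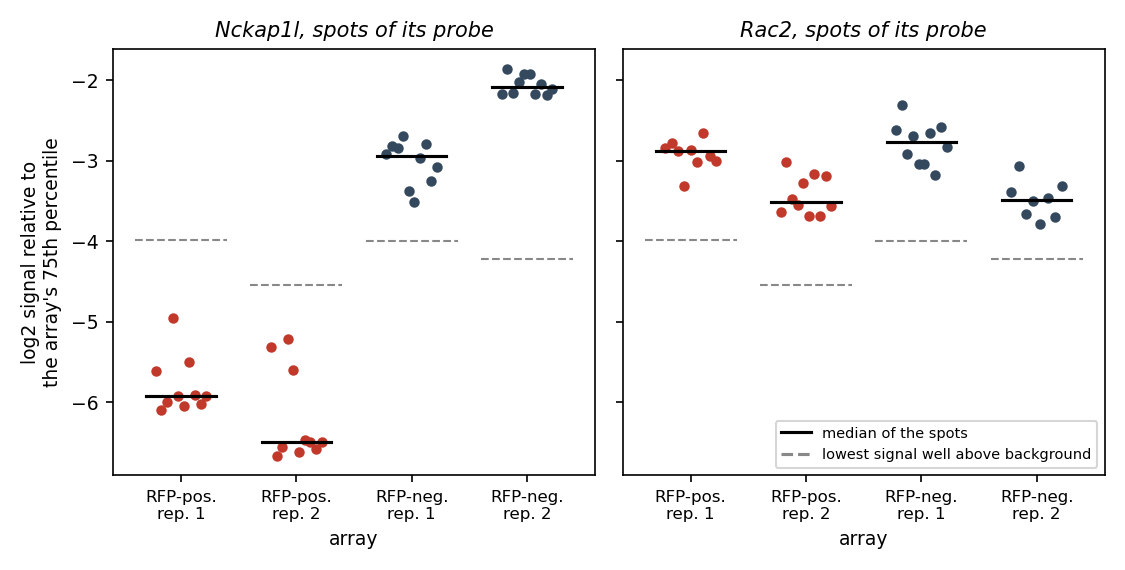
Log2 signal relative to the array's 75th percentile (vertical axis) of each spot of the Nckap1l probe (left panel) and of the Rac2 probe (right panel) on each array, without spots the scanner marked as outliers; solid bars are medians and dashed lines the lowest signal well above background on that array. All Nckap1l spots of the RFP-positive arrays lie at −4.95 or below and all those of the RFP-negative arrays at −3.51 or above, whereas the Rac2 spots of the fractions share 1 range.

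Coro1a encodes coronin 1A, an actin-binding protein of leukocytes. It read −4.30 and −4.21 in RFP-positive cells, not well above background on either array, against −3.34 and −3.30 in RFP-negative cells. The fractions did not overlap, and the arrays within a fraction differed by 0.08 in RFP-positive and 0.04 in RFP-negative cells. As a bound, Coro1a was at least 1.71-fold higher in the RFP-negative fraction by the means, and 1.56-fold in the nearest pair of arrays. Its RFP-negative readings lay 0.66 and 0.93 log2 units above the lowest signal well above background on their arrays.

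Aif1 encodes IBA1, a calcium-binding protein used as a stain for macrophages and microglia. It read −3.47 and −6.81 in RFP-positive cells, against −2.94 and −2.51 in RFP-negative cells. Of the RFP-positive arrays, replicate 1 alone was well above background, and it lay 0.53 below the nearer RFP-negative array. The difference of −2.42 was −0.75 without RFP-positive replicate 2 and −4.09 without RFP-positive replicate 1, and the lower reading has only a bound.

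Laptm5 encodes a lysosomal membrane protein of haematopoietic cells, and 2 probes read it. The brighter gave −2.19 and −3.51 in RFP-positive cells, against −2.54 and −4.26 in RFP-negative cells. The dimmer gave −3.24 and −3.86 in RFP-positive cells, against −3.50 and −4.46 in RFP-negative cells. Both probes ranked the arrays in the same order, which was also that of Tyrobp, and neither was well above background on RFP-negative replicate 2. The fractions overlapped. The differences of 0.55 and 0.43 were smaller than the gaps between the arrays of 1 fraction, which for the brighter probe were 1.32 in RFP-positive and 1.72 in RFP-negative cells. For that probe the sign turned without RFP-positive replicate 1, at −0.11, and without RFP-negative replicate 2, at −0.31.

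The spread between arrays of 1 fraction was large at such levels for all genes. Among the 2607 genes tested with a mean level between −4 and −2, the SD of the difference between the arrays of a fraction was 1.14 in RFP-positive and 0.85 in RFP-negative cells. Among the 7447 genes with a mean level of at least 0, it was 0.49 in RFP-positive and 0.36 in RFP-negative cells. Between the RFP-positive arrays, the gaps of Aif1 (3.34 in size), Fcer1g (2.93) and Laptm5 (1.32 in size) were larger than the SD at the low levels. Between the RFP-negative arrays, those of Laptm5 (1.72 in size), Spi1 (1.13 in size), Tyrobp (1.03 in size) and Nckap1l (0.97) were.

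Several of the 10 genes have a paralogue, whose RNA was read beside theirs. Nckap1, the WAVE subunit of most other tissues, was at 2.01 and 1.86 in RFP-positive cells, against 1.78 and 1.90 in RFP-negative cells, and the fractions overlapped. Its difference was 0.10 (limma SE 0.23, adjusted p 0.906), beside the bound for Nckap1l. Rac1 differed by −0.19 by its brighter probe, with overlap (limma adjusted p 0.824), and by −0.21 by its other probe, lower without overlap. Rac3 differed by −0.89 (limma adjusted p 0.745), lower in RFP-positive cells without overlap, beside −0.04 for Rac2. Coro1b differed by −0.28 (limma adjusted p 0.770) and Coro1c by −0.16 (limma adjusted p 0.839), both without overlap and lower in RFP-positive cells. Laptm4a differed by 0.16 (limma adjusted p 0.854) and Laptm4b by 0.01 (limma adjusted p 0.992), and both overlapped. The differences of the other WAVE subunits were Wasf1 at 0.42, Wasf2 at −0.09, Cyfip1 at 0.19, Cyfip2 at 0.21, Abi1 at −0.79, Abi2 at −0.03 and Brk1 at −0.26. All 14 genes of this list were well above background on all 4 arrays. In RFP-positive cells 5 were lower and 1 was higher without overlap, where 21.6% and 18.8% of all genes tested were. Of the 14, 0 passed the adjusted threshold and 1 had an unadjusted p under 0.05, where 6.49% of all genes tested did. Their median difference was −0.06, with the opposite sign when arrays were scaled to the median (0.02).

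Other genes of white blood cells were then read from 6 lists, which hold 91 genes with a probe. Of these, 45 (49.5%) passed the filter on dim probes, against 65% of all genes named, and 33 were on no array well above background. In limma's test 0 of the 45 passed the adjusted threshold, with a smallest adjusted p of 0.635. Of the 45, 8 had an unadjusted p under 0.05, where 6.49% of all genes tested did. Both RFP-positive arrays were lower for 12 and higher for 9 of the 45, where 21.6% and 18.8% of all genes tested were. These shares of all genes tested also stand beside the counts of every list below. Among the lower ones, Trem2, Pstpip1 and Cd53 passed the filter through the RFP-negative fraction only, which favours a lower reading. The median difference of the 45 was −0.15.

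Of 26 macrophage effector genes with a probe, 9 were well above background on all 4 arrays, 3 on 1 to 3 arrays and 14 on none, where 26.7% of all named genes were on none. The 14 include the lysozymes Lyz1 and Lyz2, the complement chains C1qa and C1qc, the lipopolysaccharide co-receptor Cd14, the protease Ctss, the chemokine receptor Cx3cr1, the scavenger receptor Cd163 and Adgre1, which encodes the macrophage antigen F4/80. Of the 10 tested, 5 were lower and 1 was higher in RFP-positive cells without overlap, where 21.6% and 18.8% of all genes tested were. Among those 10, 0 passed and 2 had an unadjusted p under 0.05, where 6.49% of all genes tested did. The median difference was −0.37, but 0.08 without RFP-positive replicate 2 and −0.14 with no filter on dim probes. The 4 brightest were Itgam, Cyba, Lst1 and Mrc1. Itgam, which encodes the integrin chain CD11b, had 3 probes with differences of −0.13, 0.26 and −0.12, of which the last was on no array well above background. The first read 6.91 and 6.88 in RFP-positive cells, against 7.08 and 6.97 in RFP-negative cells. The second read −2.29 and −2.32 in RFP-positive cells, against −2.42 and −2.72 in RFP-negative cells. Which probe reads Itgam transcript cannot be told, so the level of Itgam is uncertain. Cyba, a subunit of the phagocyte oxidase that other cells make too, differed by −0.34, Lst1 by −0.15 and the mannose receptor Mrc1 by 0.69 (limma adjusted p 0.816, 0.916 and 0.745). The dimmer second probes of Cyba and Lst1, well above background on all 4 arrays, differed by −1.11 and −0.49, both without overlap. Lgals3, which encodes galectin 3, was at −1.57 and −2.53 in RFP-positive cells, against −0.56 and −0.07 in RFP-negative cells, at least 2-fold apart in every pair of arrays (difference −1.73, limma SE 0.41, adjusted p 0.661).

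**Figure D3:**
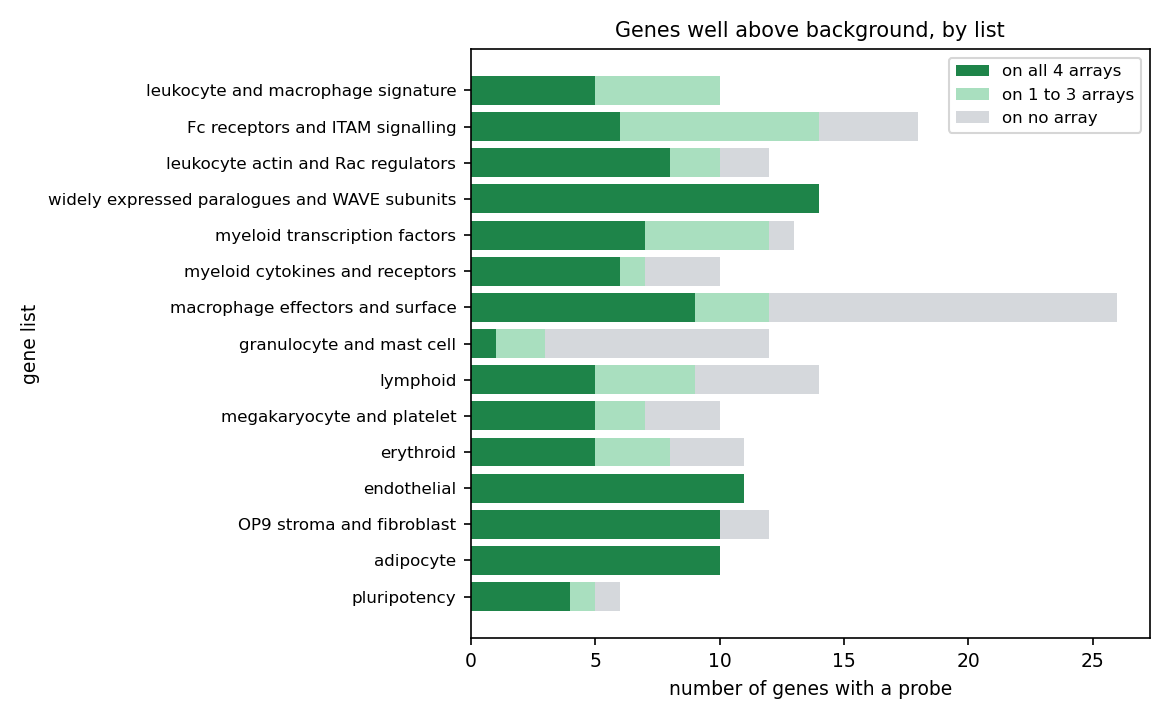
Number of genes with a probe in each list (horizontal axis), split by whether the gene's probe was well above background on all 4 arrays, on 1 to 3 or on none. Grey takes 14 of 26 macrophage effector genes and 9 of 12 granulocyte and mast cell genes, and none of the 14 paralogues and WAVE subunits or the 11 endothelial genes.

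Around the ITAM adaptors, 18 genes of Fc receptors and their signalling had a probe, 9 were tested and 4 were on no array well above background, the adaptor Lcp2 and the inhibitory receptor Fcgr2b among them. The 4 brightest were Trem1, Plcg2, Lat2 and Ptpn6, with differences of 0.15, 0.15, 0.68 and −0.36 (limma adjusted p 0.857, 0.851, 0.762 and 0.765). Trem1 read 6.54 and 6.50 in RFP-positive cells, against 6.34 and 6.41 in RFP-negative cells, and no second probe checks that level. Trem2, a receptor that signals through DAP12, was at −3.82 and −5.09 in RFP-positive cells, not well above background on either array, against −2.68 and 0.60 in RFP-negative cells. The RFP-negative arrays were 3.27 apart from each other, and as a bound Trem2 was at least 8.82-fold higher in the RFP-negative fraction, or at least 2.84-fold without RFP-negative replicate 2 and 27.4-fold without RFP-negative replicate 1, while the limma fit to the signals gave an adjusted p of 0.745. In this list 3 genes were lower and 2 were higher without overlap, where 21.6% and 18.8% of all genes tested were. In limma's test 0 passed and 1 had an unadjusted p under 0.05, where 6.49% of all genes tested did. The list's median difference was −0.34 (0.10 without RFP-positive replicate 2).

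Among 12 leukocyte regulators of actin and Rac, 10 were tested. In RFP-positive cells 2 were lower and 2 were higher without overlap, where 21.6% and 18.8% of all genes tested were. Of the 10 tested, 0 passed and 2 had an unadjusted p under 0.05, where 6.49% of all genes tested did. Their median difference was −0.13 (0.08 without RFP-positive replicate 2). The brightest were Arhgdib, Lcp1, Arpc1b and Wipf1, which differed by −0.15, 0.38, 0.35 and −0.64 (limma adjusted p 0.923, 0.765, 0.753 and 0.787). The second probes of Wipf1, at 0.30 without overlap, and of Arhgdib, at 0.27 with overlap, had the opposite sign. Pstpip1, an adaptor that links to the Wiskott-Aldrich protein, was at −5.98 and −4.56 in RFP-positive cells, against −3.03 and −2.99 in RFP-negative cells. As a bound by the fraction means, Pstpip1 was at least 2.37-fold higher in the RFP-negative fraction (limma adjusted p 0.654). Against the lowest signal well above background, the nearest pair of arrays was 1.93-fold apart. Dock2, the exchange factor that activates Rac2 in leukocytes, was on no array well above background.

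Of the 13 myeloid transcription factors beside Spi1, 8 were tested. In RFP-positive cells 3 were higher and 1 was lower without overlap, where 18.8% and 21.6% of all genes tested were. Of the 8 tested, 0 passed and 3 had an unadjusted p under 0.05, where 6.49% of all genes tested did. Their median difference was 0.48, of the opposite sign to that of Spi1, but −0.14 without RFP-negative replicate 2. It was 0.13 with no filter on dim probes and 0.13 where all 4 arrays had to be well above background. Myb, higher in RFP-positive cells, passed the filter through that fraction. Runx1, which is required for blood to emerge from endothelium and acts upstream of Spi1, had a brighter probe that differed by 1.54 (limma SE 0.31, adjusted p 0.635) and was at least 2-fold apart in every pair of arrays, higher in RFP-positive cells, where 0.469% of all genes tested were so. Its other probe, well above background on all 4 arrays, differed by −0.02 with overlap. Gfi1 differed by 1.06, Klf4 by 0.13, Cebpb by −0.05 and Cebpa by −1.19 (limma adjusted p 0.745, 0.883, 0.953 and 0.732). Cebpa also stands in the adipocyte list.

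Myeloid cytokines and receptors, with 10 genes and 6 tested, had a median difference of −0.29 (−0.51 without RFP-positive replicate 1 and −0.05 without RFP-positive replicate 2), with 1 lower and 1 higher without overlap, 0 past the adjusted threshold and 0 at an unadjusted p under 0.05. The brightest were Csf3r at 0.07, Csf1, Il3ra at −0.36 and Csf2rb at −0.22. Csf3r read 7.25 and 7.30 in RFP-positive cells, against 7.22 and 7.20 in RFP-negative cells, and no second probe checks that level. Of 12 granulocyte and mast cell genes, 9 were on no array well above background, Elane and Prtn3 among them, and 2 were tested, Mpo at −0.26 and Gzmb at 0.28 (limma adjusted p 0.818 and 0.889), 0 of them at an unadjusted p under 0.05.

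**Figure D4:**
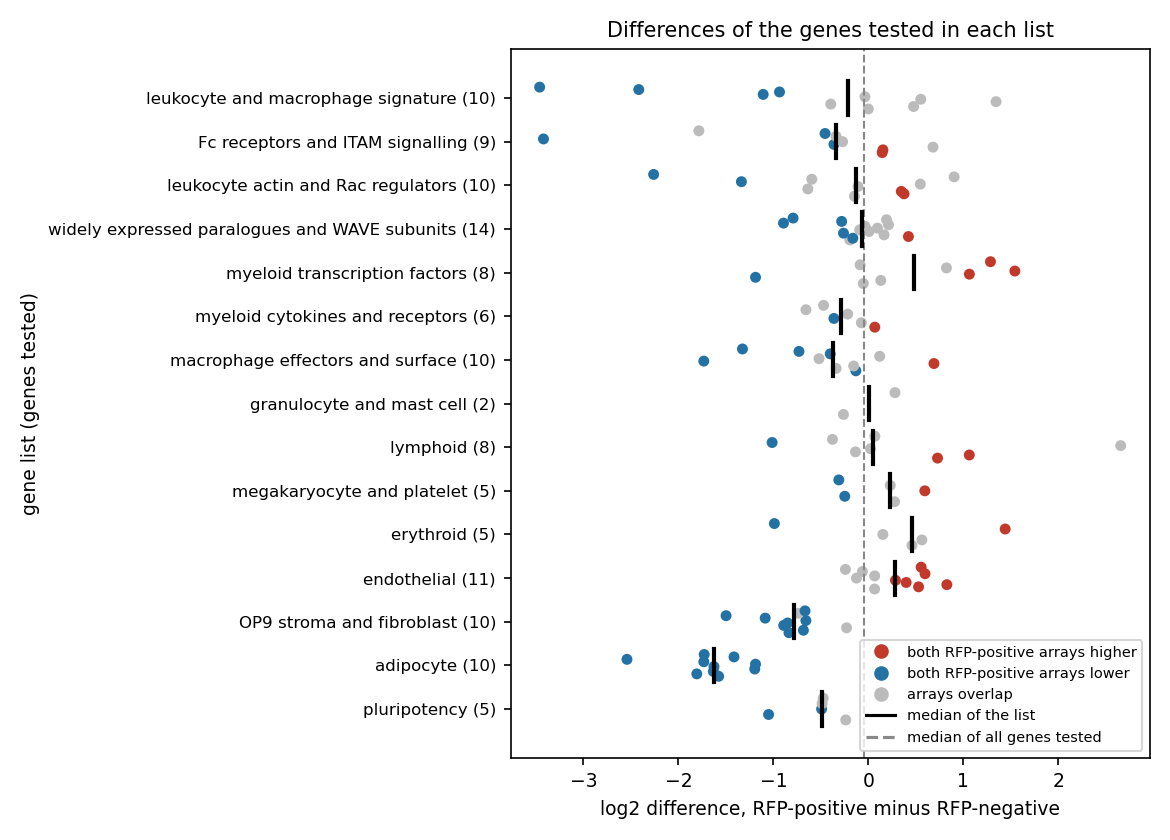
Log2 difference, RFP-positive minus RFP-negative (horizontal axis), of each gene tested in each list; red and blue points have both RFP-positive arrays above or below both RFP-negative arrays, grey points overlap, black bars are list medians and the dashed line is the median of all genes tested, −0.05. The bars of the OP9 stroma and adipocyte lists, at −0.79 and −1.63, lie farther to the left than that of the leukocyte and macrophage signature, at −0.22.

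Markers of feeder stroma and of adipocytes were lower on the same arrays as Spi1, Nckap1l, Coro1a and Aif1. The lists were chosen with earlier results of these data known, so their counts are a description. Of the 10 adipocyte genes, all 10 were lower in RFP-positive cells without overlap, where 21.6% of all genes tested were. Of the 10, 0 passed the adjusted threshold (limma, smallest adjusted p 0.446) and 10 had an unadjusted p under 0.05, where 6.49% of all genes tested did. Fabp4, which encodes a fatty acid carrier, differed by −1.58, and Adipoq, which encodes adiponectin, by −1.63 (limma adjusted p 0.618 and 0.635). The list's summed linear level, in units of the array's 75th percentile, was 21.5 and 16.1 in RFP-positive cells, against 51.2 and 62.4 in RFP-negative cells. Of 12 genes of OP9 stroma and fibroblasts, 10 were tested, 8 were lower without overlap, 0 passed the adjusted threshold, 4 had an unadjusted p under 0.05 and the median difference was −0.79 (−0.44 without RFP-negative replicate 2). Their summed level was 58.2 and 46.3 in RFP-positive cells, against 68.9 and 111.8 in RFP-negative cells. Cxcl12 makes up most of that sum, at 5.15 and 4.62 in RFP-positive cells, against 5.37 and 6.08 in RFP-negative cells. Postn and Dcn were on no array well above background. The part of feeder stroma and adipocytes in the difference of the 4 genes was not tested. For the 11 endothelial genes, 6 were higher without overlap, where 18.8% of all genes tested were, 0 were lower and 1 had an unadjusted p under 0.05. Their summed level was 86.0 and 99.1 in RFP-positive cells, against 79.6 and 72.9 in RFP-negative cells. The 10 leukocyte and macrophage genes summed to 21.7 and 19.1 in RFP-positive cells, against 19.8 and 21.2 in RFP-negative cells, and the bright Csf1r probe makes up most of that sum.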

How the data were processed

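Total RNA of sorted cells was labelled with Cy3 and read on 4 Agilent arrays, 2 per fraction, on 1 slide and in 1 scan. Per the file headers, the deposited intensity values are processed signals that the authors obtained from the scans with version 10.10.1.1 of Feature Extraction. The deposited value table holds the same signals times 1 constant per array, between 5.39 and 6.45, whose basis no header or label states.

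From these, 3671 control spots and 115 to 153 outlier spots per array were left out. Log2 signals were scaled to each array's 75th percentile, and spots of a probe were averaged. Of 55681 probes, 27235 had 1 symbol through RefSeq accessions (GRCm38 table), 0 had several and 28446 had none. The brightest probe by mean stood for a gene, and a probe was well above background if at least 50% of its spots were. Genes well above background on both arrays of at least 1 fraction were tested with limma 3.58.1 in R 4.3.3 (lmFit, eBayes, no block), two-sided. Bounds set the brighter fraction's mean against, per array, the dim probe's signal or, where higher, the array's lowest well above background.

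Members and lists were chosen with earlier results of these data known. Named genes are the 10 members, the 4 brightest of each list, genes at least 2-fold apart in every pair of arrays, and all paralogues and WAVE subunits; others named, for being undetected or as ligands, were chosen after their values were seen. The steps were tested on simulated data. Alternatives were normexp (median signals, offset 50), quantile and median scaling, the deposited table, 2 filters, the mean of probes, a replicate block, eBayes with trend, and each array left out.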

Additional observations from a re-analysis of the deposited data

How the results depend on the processing

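In all 13 alternatives 0 genes passed an adjusted p of 0.05, with smallest adjusted p from 0.094 to 0.770. With the replicate number as a block the count was 0 as well, with 1039 genes at an unadjusted p under 0.05 in place of 872. The deviations of same-numbered arrays correlated at 0.116 across 12422 genes, which with 2 numbers does not show pairing. The number of genes at least 2-fold apart in every pair, 183, was 12 with normexp, whose offset compresses dim signals, 335 with no filter on dim probes and 57 when all 4 arrays had to be well above background. In that last setting 1 of the 5 members left, Spi1, had fractions that did not overlap, in place of 4 of 10. Leaving out 1 array separates 1 array from 2 more often by construction. It gave 462 to 1753 genes 2-fold apart, 9100 to 11546 without overlap and 5 to 8 members without overlap. The median of the members ran from −0.54 to −0.04. Spi1, Coro1a, Nckap1l and Aif1 were lower in RFP-positive cells in every alternative that kept them, with normexp values of −0.46, −0.25, −0.77 and −0.58. The other list medians and member differences moved by less than the spread between arrays, except 9 list medians with 1 array left out, 2 list medians otherwise, and Coro1a at −0.80, −0.85 and −0.87 under quantile normalization, median scaling and the deposited table. Dim signal limits 9 of the 10 genes.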

Other observations

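Other blood lineages were read beside the white blood cell genes. Among 14 lymphoid genes, 8 were tested, 2 were higher and 1 was lower in RFP-positive cells without overlap, and the median difference was 0.05, which was −0.15 with normexp and −0.13 with no filter on dim probes. The T cell kinase Lck was at −0.85 and 0.03 in RFP-positive cells, against −1.49 and −1.46 in RFP-negative cells (difference 1.06, limma adjusted p 0.745), and Nkg7 differed by 0.73 by its brighter probe (limma adjusted p 0.75), while its other probe was on no array well above background. Rag1, Rag2 and Il7r, genes of lymphocyte development, were on no array well above background. Pax5 and Ebf1 differed by 0.02 and −0.14, with overlap.

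Of 10 megakaryocyte and platelet genes, 5 were tested, 2 were lower and 1 was higher in RFP-positive cells without overlap, with a median difference of 0.23, which was −0.04 without RFP-positive replicate 1 and −0.27 without RFP-negative replicate 1. Itga2b, which encodes the early blood marker CD41, averaged −0.52 ± 0.21 in RFP-positive and −1.11 ± 0.16 in RFP-negative cells (SD, n = 2 each; difference 0.59, limma adjusted p 0.745). Gp1bb, by its brightest probe, and Treml1, genes of platelets, were the lower ones, at −0.25 and −0.31 (limma adjusted p 0.793 and 0.789). Another probe of Gp1bb was higher without overlap, at 0.40, and well above background on the RFP-positive arrays only. Its remaining probe, on no array well above background, differed by −0.06 with overlap. Of 11 erythroid genes, 5 were tested, 1 was lower and 1 was higher in RFP-positive cells without overlap, with a median difference of 0.46, which was −0.07 without RFP-positive replicate 1. Gata1 was at −0.89 and 0.29 in RFP-positive cells, against −2.03 and −1.45 in RFP-negative cells (difference 1.44, limma adjusted p 0.745). Nfe2 was at −3.27 and −4.33 in RFP-positive cells, against −2.35 and −3.26 in RFP-negative cells (difference −0.99, limma adjusted p 0.75). The embryonic globin Hbb-bh1, bright on each of the 4 arrays, had a difference of 0.46 with overlap (limma adjusted p 0.847). Another, Hbb-y, by its brighter probe passed the background mark on a single array, RFP-positive replicate 1, at −1.96.

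Of 6 pluripotency genes, 5 were tested, 2 were lower in RFP-positive cells without overlap, and the median difference was −0.49, which was −0.83 without RFP-positive replicate 1 and −0.13 without RFP-positive replicate 2. Nanog, by its only probe, was at 8.96 and 8.66 in RFP-positive cells, against 9.18 and 8.92 in RFP-negative cells. Pou5f1 was at 0.24 and −1.58 in RFP-positive cells, against 0.47 and 0.29 in RFP-negative cells. Neither gene had a second probe to check its level.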
